A study of Mus musculus with 12 samples.

Results

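A set of 8 regulators of apoptosis from the Bcl2 and IAP families was followed in mouse blood neutrophils: Mcl1, Bak1, Bax, Bcl2l11, Bid, Birc2, Birc3 and Xiap. They were found by matching the NCBI Gene IDs of the normalized expression table to these symbols, and all 8 were present among the 9374 genes of the table. The libraries were made from neutrophils of female mice and fall into 4 groups of 3: KO-LPS and KO-Saline from mice labelled Hmgb1ΔMye, and WT-LPS and WT-Saline from wild-type mice. The mice had been given lipopolysaccharide (LPS, a bacterial cell wall component sensed by Toll-like receptor 4) at 0.5 mg/kg, or saline, and the cells were taken after 16 hours. The name ΔMye is commonly that of a deletion in myeloid cells. The labels give neither its driver, nor the age of the mice, nor whether each library came from a separate mouse. The p-values therefore measure the spread between libraries, which may be technical.

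Apoptosis through mitochondria is governed by the Bcl2 family. Bax and Bak1 are the effectors that form pores in the outer mitochondrial membrane. Mcl1 is a short-lived protein that holds the effectors in check, and neutrophils are known to depend on it for survival. Bcl2l11 (Bim) and Bid are BH3-only proteins, which antagonise the protective members and help to activate the effectors. The IAP proteins act further down or beside this step: Xiap binds and inhibits caspases, while Birc2 and Birc3 (cIAP1 and cIAP2) are ubiquitin ligases that steer tumour necrosis factor receptor signalling towards survival. Birc3 is a known NF-kB target gene.

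Depth was low, between 399702 and 526757 table reads per library, so that 1 read was worth 1.858 to 2.668 CPM (the read count relative to the scaled library size). For a library with no read of a gene, the upper limit set by 3 reads was 5.58 to 8.0 CPM, for counting error alone. The targeted gene, Hmgb1, had 52 pooled reads in KO-LPS, 49 in KO-Saline, 63 in WT-LPS and 37 in WT-Saline. Reads over the whole gene may come from exons outside the deletion and are no check of the genotype, and the libraries are called KO by their label. All 10 of the neutrophil markers searched were measured, S100a9 ranking 11 by mean reads and Ly6g 2851. The library kit keeps strand information, but the strand setting of the authors' read counting is not given. Among 230 long non-coding RNAs with exons opposite a measured coding gene, 172 were the better covered of the pair (74.8%, with an exact 95% interval of 68.7% to 80.3%). Long non-coding RNAs absent from the table are not in this share, and the interval treats the pairs as independent. Counting on the opposite strand would put every value below in doubt, and was not tested. KO-LPS replicate 1 stands apart: limma, the linear model used here, called 314 genes for LPS in KO with it and 1076 without it.

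Mcl1 and Bak1 were the only members called in any of the 5 limma comparisons, and the sequences upstream of their RefSeq starts are shown for that reason. Each covers 250 bases from RefSeq's GRCm38.p6 promoter table, 5′ to 3′ on the gene's strand and ending just before the annotated start. Mcl1 lies on the plus strand at chr3:95658471-95658720 and Bak1 on the minus strand at chr17:27028628-27028877. Capitals mark matches, on either strand, to motifs that were chosen after the sequences had been seen.
Mcl1: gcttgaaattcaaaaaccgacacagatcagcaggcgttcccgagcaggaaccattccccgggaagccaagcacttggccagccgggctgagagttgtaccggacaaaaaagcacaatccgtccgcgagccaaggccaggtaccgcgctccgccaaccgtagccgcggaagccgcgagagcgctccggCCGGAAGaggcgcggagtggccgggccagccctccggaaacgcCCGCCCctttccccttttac
Bak1: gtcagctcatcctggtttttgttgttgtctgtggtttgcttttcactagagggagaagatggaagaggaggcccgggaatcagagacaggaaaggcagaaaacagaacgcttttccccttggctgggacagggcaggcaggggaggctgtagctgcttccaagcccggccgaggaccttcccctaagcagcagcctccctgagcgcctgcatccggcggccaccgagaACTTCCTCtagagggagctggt
In Mcl1 the capitals mark an ETS motif (CCGGAAG), found in the first listed window of 7.05% of 27025 mouse genes, and a GC box (GGGCGG, here on the other strand), found in 32.9%. In Bak1 they mark a PU.1 motif (GAGGAAGT, on the other strand), found in 2.44%. Neither window held the NF-kB consensus (3.75% of genes), a GAS element (TTCNNNGAA, 7.18%), an ISRE core (3.04%), an AP-1 site (TGANTCA, 6.87%) or a CRE (TGACGTCA, 1.62%). All 8 members have at least 1 such window in the table, of which Bcl2l11 and Birc2 have 2 and Xiap has 3. In any of their windows, Birc2 held a CRE, Bcl2l11 and Birc2 an ETS motif, and Bax, Bcl2l11, Bid, Birc2 and Xiap a GC box, while Birc3 held none of the motifs. These are letter matches and not binding sites. The GENCODE model of Bak1 starts further upstream than the RefSeq one, so that this window lies inside it.

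Per length of exon, Mcl1 was far above the other members. In WT-LPS it stood at 230.0 ± 7.71 CPM per kb of exon, ahead of Bak1 at 38.6 ± 4.21, Birc3 at 24.7 ± 5.04, Xiap at 8.28 ± 3.07, Bid at 6.32 ± 1.0, Bcl2l11 at 5.37 ± 3.31, Bax at 3.75 ± 3.26 and Birc2 at 1.81 ± 1.66 (SD, n = 3). From Xiap down, the mean ± SD of each gene overlapped that of the next. In WT-Saline Mcl1 stood at 426.6 ± 42.6 CPM per kb, ahead of Bid at 16.4 ± 11.01, Birc3 at 14.9 ± 5.77 and Bak1 at 13.7 ± 6.55, and from Bid down through all 7 genes the neighbours overlapped in this way. By reads, Mcl1 ranked 99 among the 9374 genes with 529.2 reads per library, while Birc3 had 53.1, Bak1 29.3, Xiap 25.8, Bcl2l11 20.8, Bid 16.0, Birc2 6.83 and Bax 2.25.

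The first question was how the survival gene Mcl1 and the effectors stood after LPS in WT neutrophils. Mcl1 (chromosome 3, 95658788 to 95663176, GRCm38, plus strand) had 341, 359 and 427 reads in the WT-LPS libraries, against 626, 741 and 694 in the WT-Saline libraries. All 3 LPS libraries were below all 3 saline libraries. The level averaged 786.3 ± 26.3 CPM in WT-LPS and 1458 ± 146 CPM in WT-Saline (SD, n = 3 each). Mcl1 fell, with a log2 fold change of -0.89 ± 0.23 (standard error; 95% interval -1.36 to -0.41; limma with Benjamini-Hochberg adjustment over all genes, adjusted p = 0.0101). In bulk libraries a change within cells and a changed mix of cells cannot be told apart, and the same holds for each result below. The call was lost without WT-Saline replicate 2 (adjusted p = 0.053) and without the mean-variance trend of the model (adjusted p = 0.159).

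Bak1, the pore-forming effector, moved the other way. It had 38, 40 and 56 reads in WT-LPS, against 7, 16 and 26 reads in WT-Saline, and the groups did not overlap. The averages were 92.8 ± 10.1 CPM in WT-LPS and 33.1 ± 15.8 CPM in WT-Saline (SD, n = 3 each). Bak1 rose by 1.57 ± 0.51 on the log2 scale (95% interval 0.53 to 2.61, limma adjusted p = 0.0408), a fitted 2.97-fold difference. This call was close to the threshold: it was lost without WT-Saline replicate 1 or 2, without any 1 of the 3 WT-LPS replicates (adjusted p from 0.0823 to 0.208 over these 5), and without the trend (adjusted p = 0.163). Bak1 (chromosome 17, 27019810 to 27029009, minus strand) overlaps 437 bases of exons of Ggnbp1 on the other strand, a gene with 13.75 reads per library, so part of its reads may belong there.

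**Figure D1:**
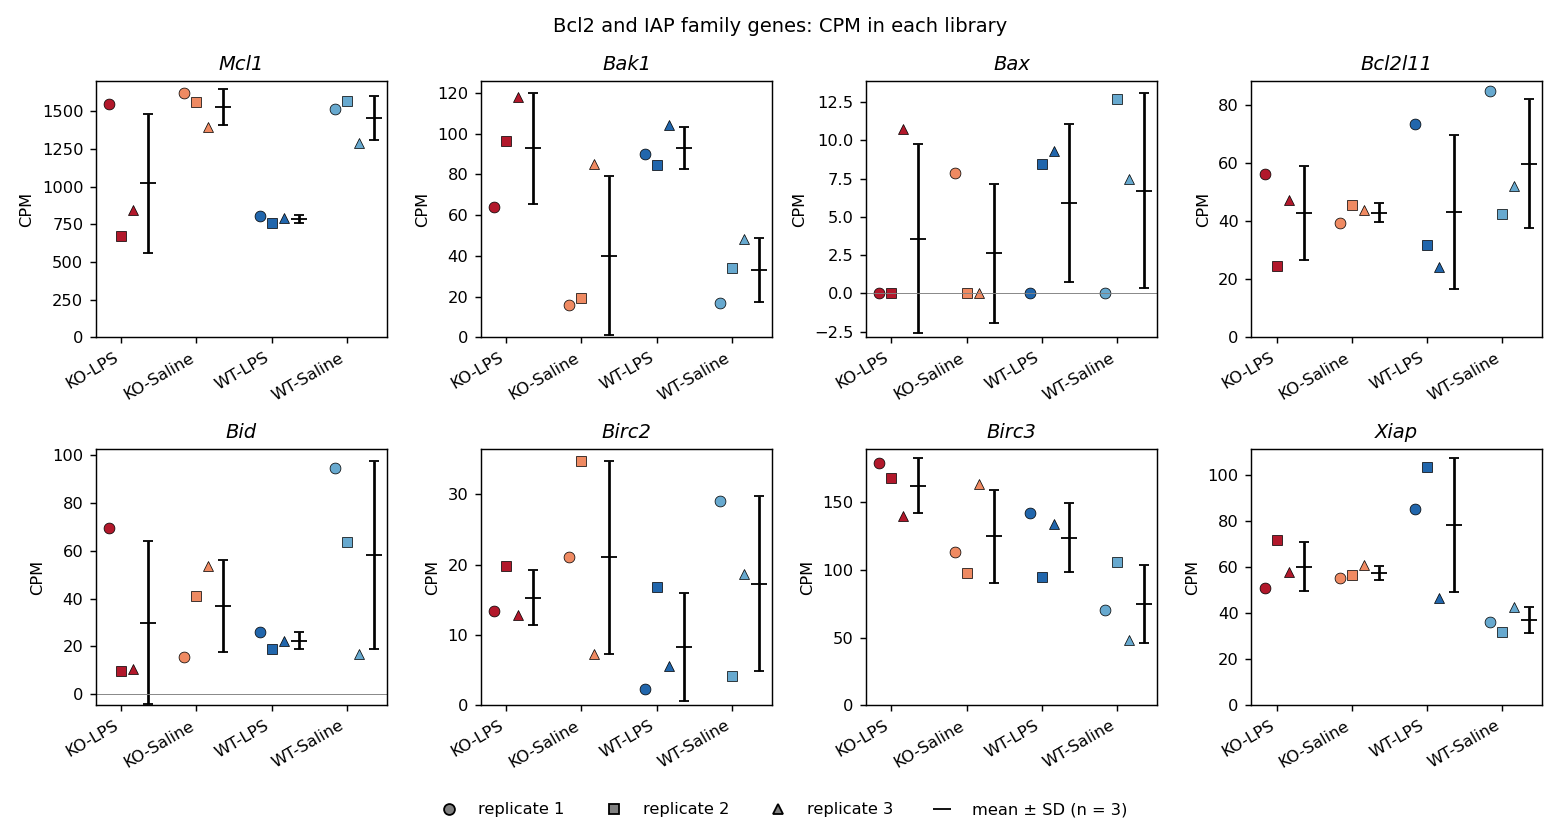
Level of each of the 8 genes in CPM in the 12 libraries, by group, with the mean and SD of the 3 libraries beside them; marker shape gives the replicate number. Mcl1 in the 3 WT-LPS libraries and in KO-LPS replicates 2 and 3 lies below every saline library, while KO-LPS replicate 1 lies among the saline libraries.

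Bax, the other effector, was barely measured. It had 27 reads over all 12 libraries and 0 reads in 6 of them. The pooled counts were 9 reads in WT-LPS and 10 reads in WT-Saline, which gives a ratio of 0.893 after scaling (95% counting interval 0.321 to 2.45). The limma interval, which takes in the spread between libraries, ran from -2.65 to 2.46 on the log2 scale. The interval leaves differences within these limits open, and it is not a limit of detection. At this depth and spread a larger difference could also have gone uncalled. Its annotated span on chromosome 7 (45461697 to 45466898, minus strand) shares 192 exon bases with a same-strand gene model, Gm45808.

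The BH3-only genes did not pass the test. Bid (chromosome 6, 120891930 to 120916853, minus strand) had 11, 9 and 12 reads in WT-LPS, against 39, 30 and 9 reads in WT-Saline. Its log2 fold change was -1.03 ± 0.70 (adjusted p = 0.403), and WT-Saline replicate 3, at 16.8 CPM, lay below all 3 LPS libraries while the other saline libraries lay above them. Bid exons overlap those of Bcl2l13 on the other strand by 628 bases, and Bcl2l13 had 194.5 reads per library against 16.0 for Bid, so the values of Bid are uncertain. Bcl2l11 (chromosome 2, 128126038 to 128162547, plus strand) had 31, 15 and 13 reads in WT-LPS, against 35, 20 and 28 in WT-Saline. The groups overlapped and the log2 fold change was -0.56 ± 0.48 (95% interval -1.55 to 0.42, adjusted p = 0.531).

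None of the 3 IAP genes passed the test in WT. Xiap and Birc3 were among the 4 of 8 members with an unadjusted p under 0.05, beside 2288 of all 9374 genes. The caspase inhibitor gene Xiap (chromosome X, 42059679 to 42109656, plus strand) had 36, 49 and 25 reads in WT-LPS, against 15, 15 and 23 reads in WT-Saline. In CPM the groups did not overlap, at 78.4 ± 29.1 in WT-LPS and 37.0 ± 5.59 in WT-Saline (SD, n = 3 each), and the log2 fold change was 1.0 ± 0.40 (95% interval 0.18 to 1.82, adjusted p = 0.111). The ubiquitin ligase gene Birc3 had 60, 45 and 72 reads in WT-LPS, against 29, 50 and 26 in WT-Saline, where replicate 2 reached into the LPS range, with a log2 fold change of 0.77 ± 0.33 (adjusted p = 0.136). Birc2 lies beside it on chromosome 9, on the same minus strand (Birc2 at 7818227 to 7837064, Birc3 at 7848699 to 7873186). Birc2 was low, with 1, 8 and 3 reads in WT-LPS and 12, 2 and 10 in WT-Saline, and its log2 fold change was -0.97 ± 0.88 (adjusted p = 0.56). These neighbours differed in their reads, 53.1 per library for Birc3 and 6.83 for Birc2, and in exon length by little, 5009 and 4580 bases.

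In WT, then, 1 of the 8 genes rose and 1 fell, 2 in all, beside 11.7% of all genes called in this comparison (6.72% higher and 4.96% lower). The groups did not overlap for 3 of the 8, higher for Bak1 and Xiap and lower for Mcl1, beside 30.6% of all genes (16.5% higher and 14.1% lower). With a list of 8 these counts do not set the members apart from the table. Their median log2 fold change was -0.33, against 0.06 over all genes.

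**Figure D2:**
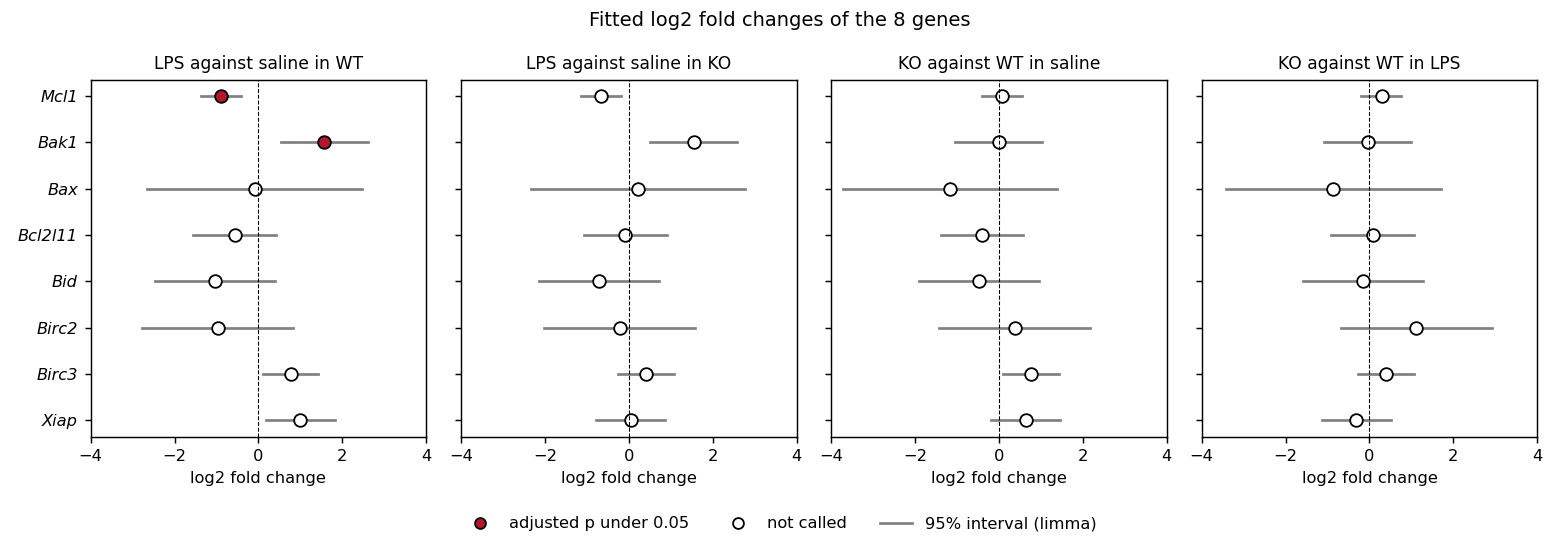
Fitted log2 fold changes of the 8 genes (points) with 95% intervals (lines) in 4 comparisons, each named as tested against reference condition; filled points are called at an adjusted p under 0.05. Mcl1 and Bak1 are filled in WT, no gene is filled in the other 3 panels, and the intervals of Bax are the widest of the 8.

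The second question was the same for KO. No member was called by limma, beside 3.35% of all genes (1.99% higher and 1.35% lower), and none had groups that did not overlap, beside 16.6% (9.67% higher and 6.89% lower). At the same time Mcl1 and Bak1 had an unadjusted p under 0.05, beside 1612 of all 9374 genes. Mcl1 was called with voom weights (adjusted p = 0.0477). Mcl1 had 580, 274 and 394 reads in KO-LPS, against 619, 721 and 574 reads in KO-Saline. Replicates 2 and 3 of KO-LPS were below every KO-Saline library, and replicate 1, at 580 reads, was not. The log2 fold change was -0.67 ± 0.23 with all libraries (95% interval -1.14 to -0.19, adjusted p = 0.118), and -1.01 without KO-LPS replicate 1 (adjusted p = 7.14e-05). The average was 1023 ± 462 CPM in KO-LPS and 1528 ± 119 CPM in KO-Saline (SD, n = 3 each).

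Bak1 had 24, 39 and 55 reads in KO-LPS, against 6, 9 and 35 reads in KO-Saline. Here it was KO-Saline replicate 3 that reached into the LPS range. The log2 fold change was 1.55 ± 0.51 (adjusted p = 0.0963), close in size to the 1.57 of WT, and it was called without KO-Saline replicate 3 (2.28, adjusted p = 0.0206) or without KO-LPS replicate 1 (1.79, adjusted p = 0.022). KO-Saline replicate 3 also had the largest share of genes with 0 reads, 19.19%, against 6.93% to 12.62% in the other libraries.

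**Figure D3:**
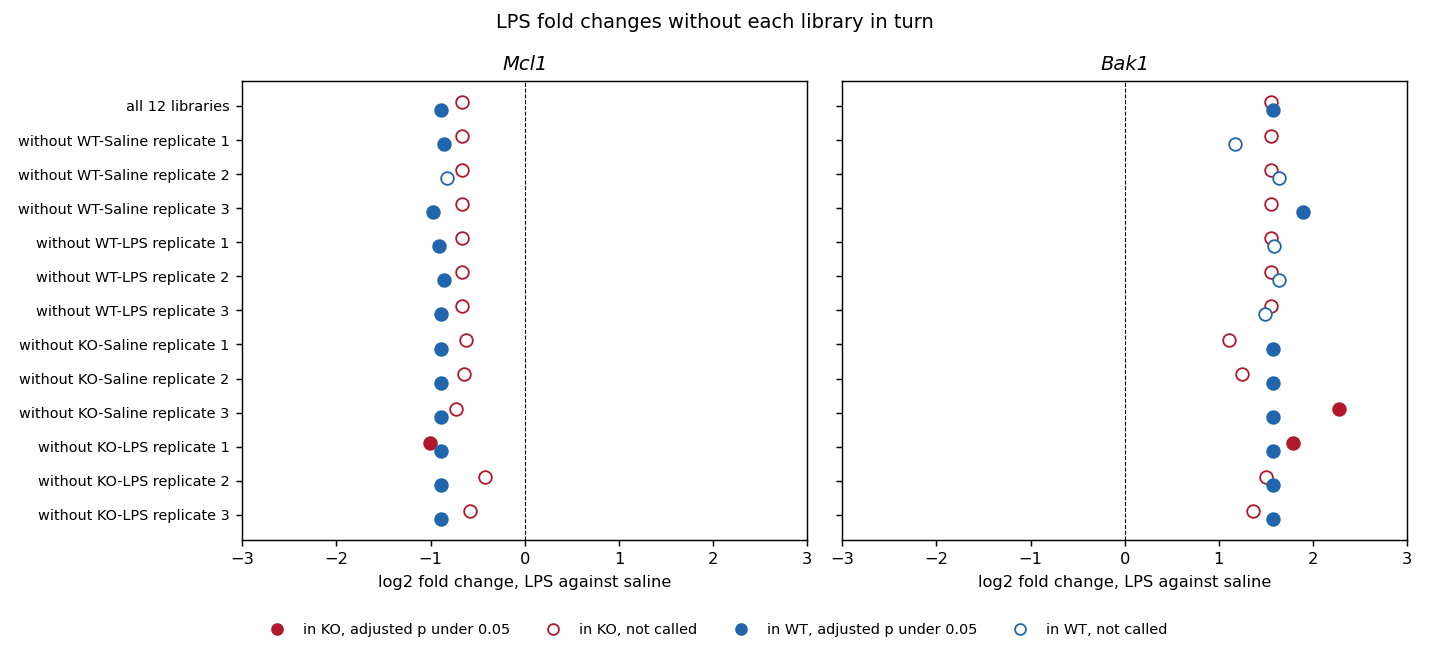
Log2 fold changes of Mcl1 and Bak1 for LPS against saline in KO and in WT, with all 12 libraries and without each library in turn; filled points are called at an adjusted p under 0.05. The sign is the same in every row, while the calls change: Mcl1 in KO is filled only without KO-LPS replicate 1.

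The other members gave no call in KO. Xiap had 19, 29 and 27 reads in KO-LPS, against 21, 26 and 25 in KO-Saline, a log2 fold change of 0.05 ± 0.40 (95% interval -0.77 to 0.87, adjusted p = 0.97). Its values thus overlapped here, unlike in WT. Birc3 had 67, 68 and 65 reads in KO-LPS and 43, 45 and 67 in KO-Saline (0.40 ± 0.33, adjusted p = 0.578). Bid had 26, 4 and 5 reads in KO-LPS, against 6, 19 and 22 in KO-Saline (-0.70 ± 0.70, adjusted p = 0.676), and KO-LPS replicate 1 lay above every KO-Saline library. Bcl2l11 had 21, 10 and 22 reads in KO-LPS and 15, 21 and 18 in KO-Saline. The remaining genes were low, Birc2 with 5, 8 and 6 reads in KO-LPS and 8, 16 and 3 in KO-Saline, and Bax with 5 and 3 pooled reads.

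The level of Mcl1 relative to Bak1 shows both genes at once. Per base of exon within a library, Mcl1 exceeded Bak1 17.0-, 4.95- and 5.04-fold in KO-LPS and 72.7-, 56.4- and 11.5-fold in KO-Saline. It did so 6.32-, 6.32- and 5.37-fold in WT-LPS and 63.0-, 32.6- and 18.8-fold in WT-Saline. The 5 lowest ratios are those of the WT-LPS libraries and KO-LPS replicates 2 and 3. As both genes were singled out by their values, the ratio is a description.

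**Figure D4:**
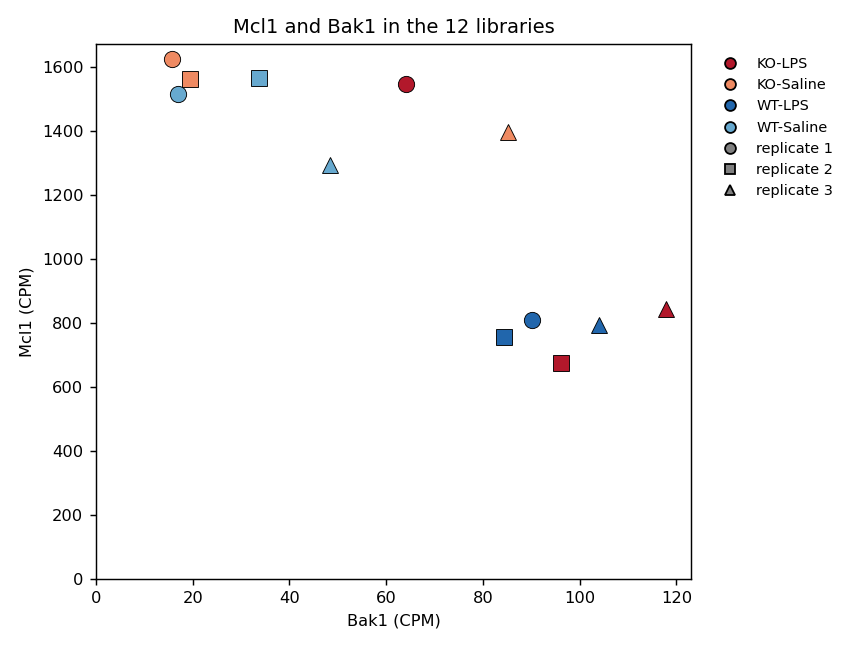
Mcl1 against Bak1, both in CPM, in the 12 libraries; colour gives the group and marker shape the replicate. A group of 5 libraries, all of LPS groups, lie at low Mcl1 and high Bak1, KO-LPS replicate 1 has the Mcl1 level of saline libraries with 64.0 CPM of Bak1, and KO-Saline replicate 3 has 85.1 CPM of Bak1.

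Between the genotypes no member differed by the limma test, beside 0.0107% of all genes in saline and 0.0% in LPS. At an unadjusted p under 0.05 there was 1 member in saline and 0 in LPS, beside 643 and 471 of all 9374 genes. Voom weights called 0 members in both. The 1 in saline was Birc3, whose average was 124.5 ± 34.2 CPM in KO-Saline and 74.8 ± 28.9 CPM in WT-Saline (SD, n = 3 each), a log2 difference of 0.77 ± 0.33 (adjusted p = 0.666). Xiap did not overlap between the saline groups, with 57.4 ± 2.98 CPM in KO-Saline and 37.0 ± 5.59 CPM in WT-Saline (log2 difference 0.63 ± 0.40, adjusted p = 0.814). It was 1 of 8 members without overlap there, beside 12.1% of all genes (5.82% higher and 6.28% lower). In LPS there was none, beside 9.79% (4.32% higher and 5.47% lower). For Mcl1 the log2 difference was 0.07 (95% interval -0.40 to 0.54) in saline and 0.29 (-0.19 to 0.76) in LPS.

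The difference between the LPS responses, KO minus WT, was tested as an interaction and was called for no member and for 0.0% of all genes. At an unadjusted p under 0.05 there were 0 members, beside 560 of all 9374 genes, and voom weights called 0 members. The interaction was 0.22 ± 0.33 for Mcl1 (adjusted p = 0.954) and -0.02 ± 0.72 for Bak1 (adjusted p = 0.999). Xiap had the interaction of smallest p among the 8, at -0.95 ± 0.57 (95% interval -2.11 to 0.21, adjusted p = 0.871). Calls in WT that were not made in KO are therefore not shown to differ between the genotypes.

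Other genes of the apoptosis pathway were taken from lists of 54 genes, of which 36 were measured and the other 18 are not analysed here. In WT 3 of the 36 rose and none fell, beside 11.7% of all genes called (6.72% higher and 4.96% lower), so this count does not set the lists apart. The median log2 fold change was 0.29 against 0.06 over all genes. Xaf1, an interferon-inducible antagonist of XIAP, rose from low counts, with 16, 17 and 10 reads in WT-LPS against 2, 3 and 2 in WT-Saline (2.36 ± 0.77, adjusted p = 0.0446). Naip5 and Naip2, which carry the BIR domains of the IAP family and act as inflammasome sensors of bacterial proteins, rose by 3.57 ± 0.78 (adjusted p = 0.00246) and 1.78 ± 0.53 (adjusted p = 0.0255). Naip5 had 30, 21 and 34 reads in WT-LPS, against 3, 2 and 1 in WT-Saline, while Naip2 had 44, 46 and 38 against 7, 16 and 15. The Naip genes are near-identical neighbours, so reads may be split between them. The Xaf1 call was lost with voom weights (adjusted p = 0.0547), without each of the 6 WT libraries in turn and without KO-LPS replicate 2 or 3, and the Naip2 call without 5 of the 6 WT libraries in turn and without the trend (adjusted p = 0.0966).

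In KO none of the 36 was called by limma or with voom weights, beside 3.35% of all genes called by limma. At an unadjusted p under 0.05 there were 7 of the 36, beside 1612 of all 9374 genes. The median log2 fold change was 0.48 against 0.09 over all genes. Xaf1 had 8, 20 and 19 reads in KO-LPS against 1, 3 and 5 in KO-Saline (2.30 ± 0.77, adjusted p = 0.105), and Naip2 had 7, 32 and 44 against 6, 10 and 10 (1.32 ± 0.53, adjusted p = 0.189). Without KO-LPS replicate 1 both were called, Xaf1 at 2.64 (adjusted p = 0.0464) and Naip2 at 2.03 (adjusted p = 0.00439). Naip5 had 3, 25 and 20 reads in KO-LPS against 5, 9 and 2 in KO-Saline (1.28 ± 0.78, adjusted p = 0.432). Naip5 was not called in KO without that library either, and its interaction was -2.29 ± 1.11 (adjusted p = 0.826). Between the genotypes and in the interaction none of the 36 was called by limma or with voom weights. The genes at an unadjusted p under 0.05 numbered 1 of the 36 in saline, 1 in LPS and 2 in the interaction. Over all 9374 genes the numbers were 643, 471 and 560.

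**Figure D5:**
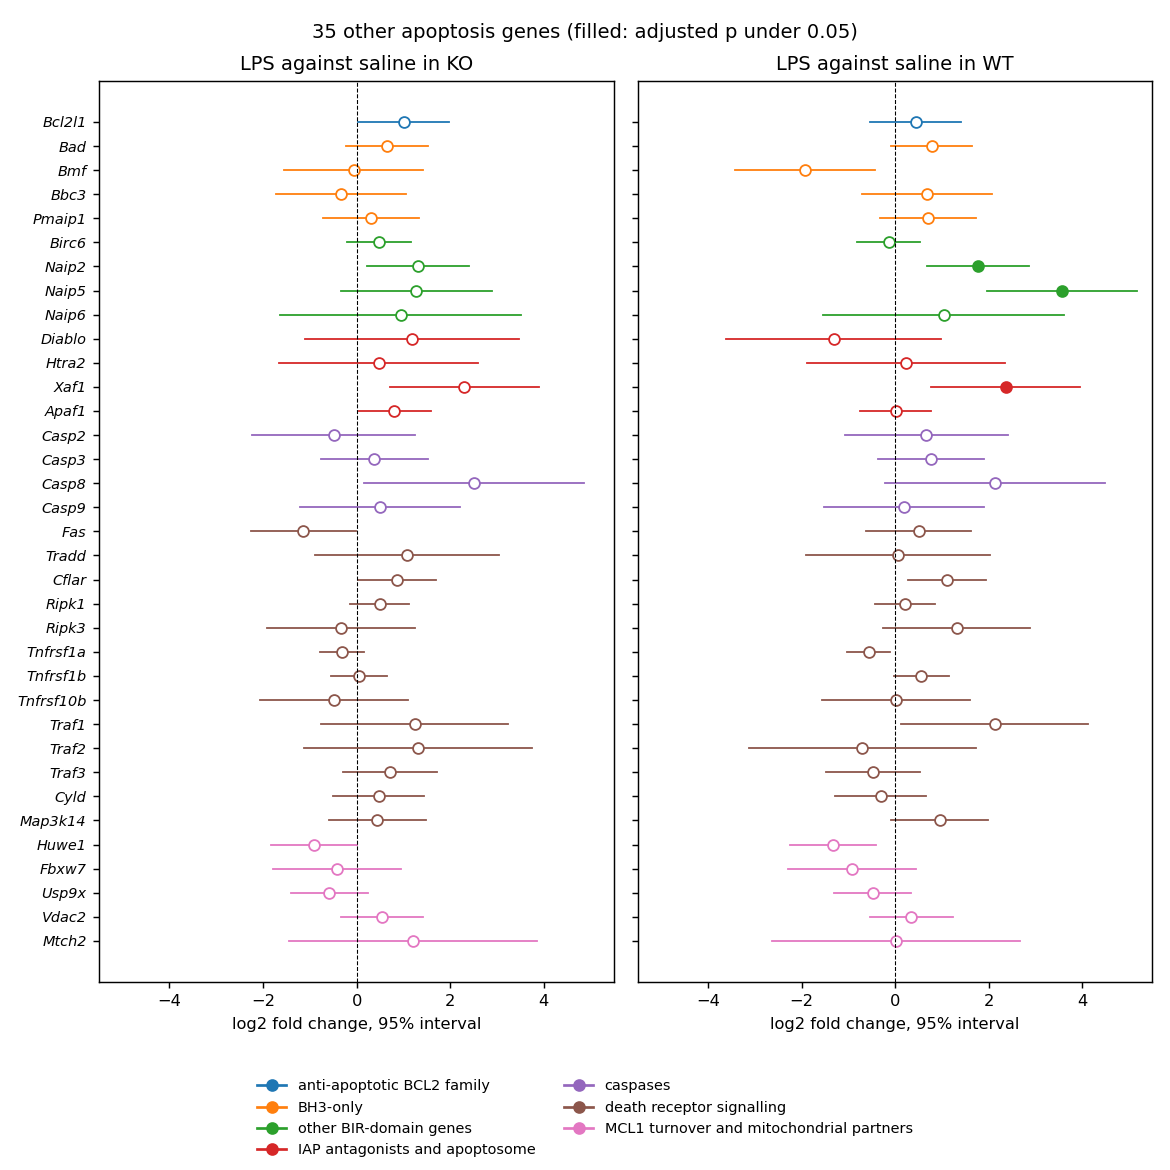
Fitted log2 fold changes (points) and 95% intervals (lines) of 35 of the 36 other apoptosis genes for LPS against saline in KO and in WT, coloured by list; filled points are called at an adjusted p under 0.05. Among these genes only Naip2, Naip5 and Xaf1 in WT are filled.

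For 4 of the lists with no call, the gene with the most reads is given, a ranking that is not per length of exon. Bcl2l1 (Bcl-xL), a protective relative of Mcl1, had 15, 23 and 23 reads in WT-LPS and 12, 14 and 18 in WT-Saline (0.44 ± 0.48, adjusted p = 0.643). The BH3-only gene Bad, which overlaps Gpr137 on the other strand, was at 0.79 ± 0.42 (adjusted p = 0.263). Of the 4 measured genes of its list 3 were above 0 and 1, Bmf, was below. Bmf was at -1.92 ± 0.73 (adjusted p = 0.0882), with 18 pooled reads in WT-LPS and 64 in WT-Saline. With voom weights Bmf was called (adjusted p = 0.0466). The TNF receptor gene Tnfrsf1b, with 169.8 reads per library, was at 0.56 ± 0.29 (adjusted p = 0.239). Tnfrsf1a, another TNF receptor gene with 164.2 reads per library, had the opposite sign, at -0.56 ± 0.23 (adjusted p = 0.111). Huwe1, a ubiquitin ligase that targets the MCL1 protein for degradation, had 16, 13 and 19 reads in WT-LPS, against 32, 32 and 62 in WT-Saline (-1.32 ± 0.45, adjusted p = 0.0545). Its groups did not overlap and it stood just outside the threshold. In KO, Bcl2l1 was at 1.01 ± 0.48 (adjusted p = 0.27), Bad at 0.65 ± 0.42 and Huwe1 at -0.91 ± 0.45 (adjusted p = 0.296). Tnfrsf1b was at 0.05 ± 0.29 in KO and Tnfrsf1a at -0.31 ± 0.23. The lists called only in WT add Birc6, a giant IAP (0.48 ± 0.33, adjusted p = 0.49), and Apaf1, the scaffold of the apoptosome (0.81 ± 0.37, adjusted p = 0.255).

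Profiles of other genes were compared with those of the members that had at least 20 reads per library. Among 4687 genes at or above the median level, the profiles most like Mcl1 were those of Btg1 and Cap1 (Pearson r = 0.983 for each over 12 libraries, and 0.967 and 0.953 after group means were removed). For Bak1 the closest was Eif4g3 (0.95). Birc3 was closest to Gtf3a (0.927) and Rbm10 (0.857), Xiap to Emc9 (0.896) and Usp22 (0.893), and Bcl2l11 to Babam2 (0.83). Removing group means leaves the spread within groups, which for Mcl1 was largest in KO-LPS, at an SD of 462.1 CPM. In WT-Saline, WT-LPS and KO-Saline the SD was 145.6, 26.34 and 118.5 CPM. KO-LPS replicate 1, which stands apart, had 1547 CPM of Mcl1, against 676.0 and 844.8 CPM in the other KO-LPS libraries. The values 0.967 and 0.953 may thus rest largely on that library, and likeness without it was not tested. The libraries share their treatment groups and scaling, and the values describe likeness only.

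Markers of cell types also moved with LPS in WT, where Mcl1 fell and Bak1 rose. Of the 10 neutrophil markers 6 rose and 2 fell, with summed levels of 17000 to 19900 CPM in WT-LPS and 13300 to 17900 CPM in WT-Saline. All 3 measured platelet markers of 6 listed fell, with sums of 161 to 255 CPM in WT-LPS and 523 to 779 CPM in WT-Saline. By mean reads Gp1ba ranked 402, Gp9 5034 and Clec1b 6891, so these sums are mostly those of Gp1ba. Pf4, Ppbp and Itga2b, also listed, were not measured. Of 4 measured monocyte and macrophage markers of 8 listed, 1 rose and 2 fell (496 to 640 CPM in WT-LPS, 353 to 460 CPM in WT-Saline). The higher sum in WT-LPS was that of Ly6c2 alone (log2 fold change 3.67). Csf1r (-0.89) and Apoe (-3.36) fell, and Adgre1 (-1.05) was not called. Of 2 measured dendritic cell markers of 4 listed, Clec9a fell and Xcr1 was not called. Of 2 measured T and NK cell markers of 6 listed, Tcf7 fell and Cd3d was not called. The T and NK sums overlapped, at 84.4 to 213 CPM in WT-LPS and 119 to 165 CPM in WT-Saline. The 1 measured B cell marker of 4 listed, Cd79a, rose. Clec9a and the platelet marker Clec1b, which share a locus, had 0 reads in all 3 WT-LPS libraries. In KO, neutrophil markers counted 2 that rose and 1 that fell, while 1 platelet marker, Gp1ba, and 1 monocyte and macrophage marker, Apoe, fell, and the B cell marker Cd79a rose. KO-LPS replicate 1, the library with the saline-like Mcl1 level, had 496 CPM of platelet markers and 34.7 CPM of Cd79a. The other KO-LPS libraries had 217 and 247 CPM of platelet markers and 104 and 101 CPM of Cd79a, and the KO-Saline libraries had 651 to 837 CPM and 7.3 to 28.9 CPM. The part of these cell types in the results was not tested.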

How the data were processed

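RNA of blood neutrophils was purified with the miRNeasy micro kit and libraries were made with the Tecan Universal Plus Total RNA kit, per the labels' protocols. The authors deposited 1 table of normalized expression on a log2 scale, with genes as NCBI Gene IDs; per the submitters' processing notes the build was mm10. Its aligner, read counter and strand setting are not given in the sources. The values had the form log2 CPM with 0.5 reads added, since whole reads came back within 0.0001 for 100.0% of values in each column. Depth was 399702 to 526757 reads per library, with 11.33 for the median gene; intervals on counts cover counting error only.

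Symbols came from RefSeq (9372 of 9374 IDs) and coordinates, 1-based, from GENCODE M21 (9296 genes). The deposited values were fitted with limma 3.58.1 in R 4.3.3: 4 group means over all 12 libraries, moderated statistics with a mean-variance trend, two-sided tests, and Benjamini-Hochberg adjustment over all 9374 genes within each comparison, called under 0.05. Because 0.5 reads were added before the logarithm, fold changes of sparsely read genes are unreliable. They can come out too small, or above the ratio of pooled reads where some libraries have 0 reads. No 2 libraries of a group agreed within sampling noise (chi-square per degree of freedom at least 2.94). The members and gene lists were chosen with earlier results of these data known. All members are named, as are called genes of each list, the most abundant gene of a list with none called, and the 2 genes most like each member with at least 20 reads per library; some genes that this rule takes are not reported here. The alternatives were no trend, voom weights on the recovered reads, 2 reads added, a median filter, fits of only the groups compared, a replicate block, each library left out in turn and, chosen after seeing the data, 2 other scalings.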

Additional observations from a re-analysis of the deposited data

How the results depend on the processing

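Without the mean-variance trend no member was called in WT (0 of 8, against 2), and the calls over all genes were 363 in WT against 1095, 16 in KO against 314, and 0 between genotypes in saline against 1. With voom weights 1 member was called in KO, and 2 genes of the table each between genotypes in saline, between genotypes in LPS and in the interaction. In KO voom weights called 150 genes higher and 153 lower, against 187 and 127. When only the groups compared were fitted, 6 pathway genes were called in WT against 3, beside 1433 genes of the table against 1095. These fits called 82 genes of the table in KO and 22 between genotypes in saline. With 2 reads added, and with scaling by table totals, 4 genes each were called between genotypes in saline. The 2 other scalings changed no member's call. The filter at the median level left out Xaf1 and Naip5 among other genes with few reads, so that they have no value there. The causes of these differences were not tested.

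Leaving out 1 library at a time gave 0 to 2 called members in WT and in KO, and 1 to 5 pathway genes in WT and 0 to 2 in KO. Over all genes it gave 734 to 1427 calls in WT, 32 to 1076 in KO, 0 to 31 between genotypes in saline, 0 to 2 in LPS and 0 to 7 in the interaction. Such fits have fewer samples. No member or pathway gene was called between genotypes or in the interaction under any alternative run, and no called member changed sign.

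The labels do not say whether same-numbered libraries share more than a number. The correlation of their deviations from group means ran from -0.105 to 0.064. With this few reads per gene, such a correlation cannot exclude a shared step. In each group the Bak1 level was highest in replicate 3, and the reason was not tested. With the replicate block 1086 genes were called in WT and 336 in KO. Among them were Mcl1 (adjusted p = 0.0076) and Bak1 (adjusted p = 0.0202, against 0.0408 without the block) in WT. There Xaf1 lost its call (adjusted p = 0.0543) and Huwe1 gained one (adjusted p = 0.0309). Depth limits Bax and Birc2 most, with 2.25 and 6.83 reads per library.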
